A study of Mus musculus with 44 samples.

Results

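Satellite glial cells (SGCs), which ensheathe the cell bodies of sensory neurons in dorsal root ganglia, were compared 14 and 3 days after ligation of the sciatic nerve. The comparison used 8 ligated libraries, 4 taken at 14 days and 4 at 3 days, out of 44 libraries in the series. A further 8 sham libraries, 4 at 14 days and 4 at 3 days, gave the change with day alone and the level without ligation. Libraries were chosen by the surgery and day in their labels and not by any measured value. All 4 groups came from C57BL/6 mice aged 9 to 11 weeks with no transgene or drug named: full sciatic nerve ligation at 14 days, full ligation at 3 days, sham surgery at 14 days and sham surgery at 3 days. SGCs of all groups came from L3 and L4 ganglia that were dissociated with enzymes, fixed with paraformaldehyde, stained with antibodies and Hoechst and sorted by flow cytometry. The antibodies, and whether a library pools animals or shares an animal with another, are not given in the sources used here, so p-values measure the spread between libraries only.

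Cutting or tying off the sciatic nerve injures the axons of sensory neurons. In the ganglion, injured neurons switch on a growth programme led by the transcription factor Atf3 and by neuropeptides such as galanin. SGCs respond to the same injury and are known for coupling through gap junctions, for buffering potassium and glutamate, and for making lipids, including cholesterol, around the neuron. Interferon-induced genes and the major histocompatibility complex (MHC) genes that present peptides to T cells are further groups known to change in glia after injury.

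The sorted libraries carried SGC marker genes at high levels. Fabp7, a lipid carrier made by SGCs, averaged 8124 FPKM or more in every group. Summed over the 16 SGC markers on the list, all of which passed the expression filter, levels ran between 17350 and 22460 FPKM in ligated day-14 libraries, 14660 and 21050 in ligated day-3, 20820 and 22950 in sham day-14, and 15760 and 21020 in sham day-3 libraries. FPKM count fragments relative to transcript length and library size. The libraries also held RNA of other cells: neuron markers summed to 267 to 754 FPKM in ligated day-14 libraries and 412 to 689 in ligated day-3, against 221 to 492 in sham day-14 and 182 to 818 in sham day-3 libraries. Fibroblast markers summed to 543.5 to 1397 FPKM in ligated day-14 and 485 to 900 in ligated day-3 libraries. In sham libraries they summed to 299 to 1180 at day 14 and 460 to 634 at day 3. Markers of myelinating Schwann cells summed to 751 to 827, 681 to 763.5, 792.5 to 848 and 648 to 748 FPKM in the same order of groups. Those of repair Schwann cells summed to 363 to 628, 449 to 622, 349.5 to 453 and 345 to 437 FPKM. Lymphocyte markers were near 0, with no marker of 12 passing the filter. Between 11452 and 12775 genes reached 1 FPKM per library. The total reads are unknown. Ligated day-3 replicate 1 had the fewest genes at 1 FPKM and stood apart on the first principal component, with a loading of 0.70 where the other 15 libraries lay between -0.34 and 0.38. In bulk RNA, fewer cells of a type and less RNA per cell cannot be told apart.

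The first question was how ligated SGCs at 14 days differ from ligated SGCs at 3 days, and whether sham SGCs differ between the same days. On the log2(FPKM + 1) scale, which compresses differences of weakly expressed genes, 1 of 13924 tested genes passed an adjusted p of 0.05 between the ligated groups (0.00718% of genes; limma, Benjamini-Hochberg). No gene (0%) passed between sham day 14 and sham day 3, where 695 genes had an unadjusted p under 0.05. Of the ligated comparison, 869 genes had an unadjusted p under 0.05, which is 6.24% of genes, against 4.99% for sham. The test of whether the day change differed between ligated and sham SGCs also called 1 gene (0.00718%). Genes whose 4 libraries of one day all lay outside the range of the other were about as many in both surgeries. In ligated SGCs, 324 genes (2.33%) were higher at 14 days in every library and 126 (0.905%) lower. In sham SGCs these numbers were 339 (2.43%) and 122 (0.876%). The median gene was 0.06 log2 units higher at day 14 in ligated and in sham SGCs alike, so small positive differences below are to be read against that shift.

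The gene called in both tests was Polr2b (ENSMUSG00000029250, chromosome 5, 77310147 to 77349324, GRCm38 here and throughout), a core subunit of RNA polymerase II. It read 6.75, 6.01, 4.84 and 6.60 FPKM in ligated day-14 libraries and was listed at 0 in all 4 ligated day-3 libraries. In sham SGCs it read 5.02 to 8.38 FPKM at day 14 and 4.73 to 6.54 FPKM at day 3. The ligated groups did not overlap, and the log2 difference was 2.81 ± 0.19 (SE; limma adjusted p = 2.89e-06). The authors' deposited table gave Polr2b a ligated over sham log2 fold change of -0.31 at 3 days with an adjusted p of 0.82, a far smaller difference than in the FPKM values. An exact 0 in FPKM for a gene that cells use can be a failed estimate. The count of 1 was 2 without ligated day-14 replicate 2 and 4 without ligated day-14 replicate 3. The added genes were Gm12963 in the first of these, and Nqo2, Snora21 and Gm26631 in the other.

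Among genes whose ligated groups did not overlap and that were listed at 0 in at most 2 libraries, the 10 with the smallest p in each direction were examined, and none passed adjustment. Non-overlapping genes were about as frequent in sham SGCs. Genes higher at 14 days included a neuropeptide, an MHC class II chain and a lipid enzyme. Nts, the precursor of the neuropeptide neurotensin, read 370, 224, 247 and 144 FPKM in ligated day-14 libraries and 12.2, 36.3, 42.7 and 4.98 FPKM in ligated day-3 libraries. The lowest day-14 library was over the highest day-3 library. In sham SGCs Nts averaged 65.4 ± 14.6 FPKM at 14 days and 20.9 ± 21.4 at 3 days (SD, n = 4), so sham SGCs also read higher at the later day. The log2 difference was 3.62 ± 0.72 in ligated and 2.22 ± 0.72 in sham SGCs (SE; limma adjusted p = 0.423 and 0.967), and the difference between them was 1.41 ± 1.02.

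Tspan8, a tetraspanin membrane protein, read 13.8, 13.4, 10.1 and 9.01 FPKM in ligated day-14 libraries and 2.30, 1.70, 4.65 and 0.0810 FPKM in ligated day-3 libraries. Sham SGCs read 4.24 to 9.56 FPKM at 14 days and 5.50 to 14.9 at 3 days, so the ligated day-3 group was the low one. Its log2 difference was 2.19 ± 0.42 in ligated SGCs (adjusted p = 0.384). Acly, which makes the cytosolic acetyl-CoA used for cholesterol and fatty acids, averaged 47.7 ± 2.61 FPKM at 14 days and 30.1 ± 3.05 at 3 days after ligation, and 55.5 ± 6.66 and 49.9 ± 7.49 in sham SGCs at the same days. The authors' deposited table called Acly lower after ligation at 3 days (log2 -0.74, adjusted p = 0.000464) and gave -0.20 at 14 days (adjusted p = 0.73). Zfp931 and Champ1 (zinc finger proteins), Ilvbl, Htr1f (a serotonin receptor), Rad51ap1 (a DNA repair protein) and 4930518I15Rik completed the group, with H2-Ab1 described among the MHC genes. Their ligated log2 differences lay between 0.89 for Ilvbl and 2.28 for Rad51ap1, with limma adjusted p of 0.297 for 4930518I15Rik and 0.423 or more for the others.

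Genes lower at 14 days were led by Wfdc1, a secreted WAP-domain protein. Wfdc1 read 4.72, 2.94, 4.27 and 3.08 FPKM in ligated day-14 libraries and 11.5, 9.57, 10.9 and 7.14 FPKM in ligated day-3 libraries, with no overlap. Sham SGCs read 6.67 to 8.52 FPKM at 14 days and 4.71 to 7.76 at 3 days, with means between those of the ligated groups. The ligated log2 difference was -1.18 ± 0.20 (SE; limma adjusted p = 0.205), the smallest adjusted p after Polr2b. The authors' deposited table called Wfdc1 lower after ligation at 14 days (log2 -0.99, adjusted p = 0.0112). Neat1, the long noncoding RNA that builds paraspeckles, averaged 47.4 ± 5.65 FPKM at 14 days and 77.3 ± 12.1 at 3 days after ligation, against 59.7 ± 12.2 and 62.0 ± 6.63 in sham SGCs. Hoxb6, a homeobox gene, and Ppa1, which breaks down pyrophosphate, averaged higher in ligated day-3 libraries than in the other 3 groups. Ppa1 averaged 9.62 FPKM in ligated day-14 and 22 in ligated day-3 libraries, against 8.66 in sham day-14 and 8.51 in sham day-3 libraries. Hoxb6 averaged 2.45 FPKM in ligated day-14 and 6.39 in ligated day-3 libraries, against 2.10 in sham day-14 and 2.37 in sham day-3 libraries. Ift172 (a transport protein of cilia), Tdp1 (a DNA end-repair enzyme), St3gal6 (a sialyltransferase), Wdr33 (a factor of messenger RNA 3′ end processing), Ints8 (a subunit of the Integrator complex) and Aimp1 (a scaffold of the tRNA synthetase complex) made up the rest, with log2 differences between -2.0 for Ints8 and -0.97 for Wdr33. Aimp1 was lower by a like amount in sham SGCs at 14 days (log2 -1.52 ± 0.47). Ints8 had a 3-day ligated minus sham difference of 1.36 in the FPKM values and -0.41 in the authors' deposited table, so its direction at 3 days differs between them.

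Atf3, Serpina3n and Ifitm3 were followed as marker genes. No day change, nor any difference in day change, passed the test for them. Atf3 (ENSMUSG00000026628, chromosome 1, 191170296 to 191218039), the stress-induced transcription factor, read 44.4, 29.2, 46.1 and 15.5 FPKM in ligated day-14 libraries and 68.4, 47.7, 90.9 and 49.9 FPKM in ligated day-3 libraries. Sham libraries read 2.75, 11.2, 11.1 and 11.6 FPKM at day 14 and 12.6, 1.48, 4.71 and 6.34 FPKM at day 3. All ligated libraries were above all sham libraries, and all ligated day-14 libraries were below all ligated day-3 ones. At 3 days the ligated minus sham difference was 3.36 ± 0.51 (SE; limma adjusted p = 0.0331) and at 14 days 1.81 ± 0.51 (adjusted p = 0.561). The day-14 minus day-3 difference of ligated SGCs was -0.97 ± 0.51 (adjusted p = 0.80) and did not pass.

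Serpina3n (ENSMUSG00000021091, chromosome 12, 104406729 to 104414329), a secreted protease inhibitor of reactive glia, was higher after ligation at both days and reached its highest level at the later one. It read 167, 201, 223 and 191 FPKM in ligated day-14 libraries and 153, 145, 149 and 184 FPKM in ligated day-3 libraries. Sham libraries read 62.6, 73.8, 81.2 and 59.3 FPKM at day 14 and 82.5, 119, 66.8 and 110 FPKM at day 3. Ligated and sham libraries did not overlap at either day. Serpina3n was the 1 gene of 13924 called at 14 days (0.00718%), where it rose by 1.49 ± 0.18 log2 units (SE; limma adjusted p = 0.0066), and it stayed under 0.05 in all 16 fits that left out 1 library, with an adjusted p of at most 0.0494. The 3-day difference was 0.76 ± 0.18 (adjusted p = 0.162). The ligated day change was 0.30 ± 0.18 and the sham day change -0.42 ± 0.18, and neither passed.

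Ifitm3 (ENSMUSG00000025492, chromosome 7, 141009586 to 141010770), an interferon-induced membrane protein that blocks virus entry, read 2195, 1785, 3175 and 2098 FPKM in ligated day-14 libraries and 1406, 1792, 1895 and 1612 FPKM in ligated day-3 libraries. Sham libraries read 1432, 2037, 1650 and 1340 FPKM at day 14 and 1426, 1807, 1774 and 1935 FPKM at day 3. The 4 groups overlapped, and ligated day-14 replicate 3 was the highest library. The ligated day change was 0.44 ± 0.18 (SE; limma adjusted p = 0.73) and the 14-day ligated minus sham difference 0.50 ± 0.18 (adjusted p = 0.876).

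**Figure D1:**
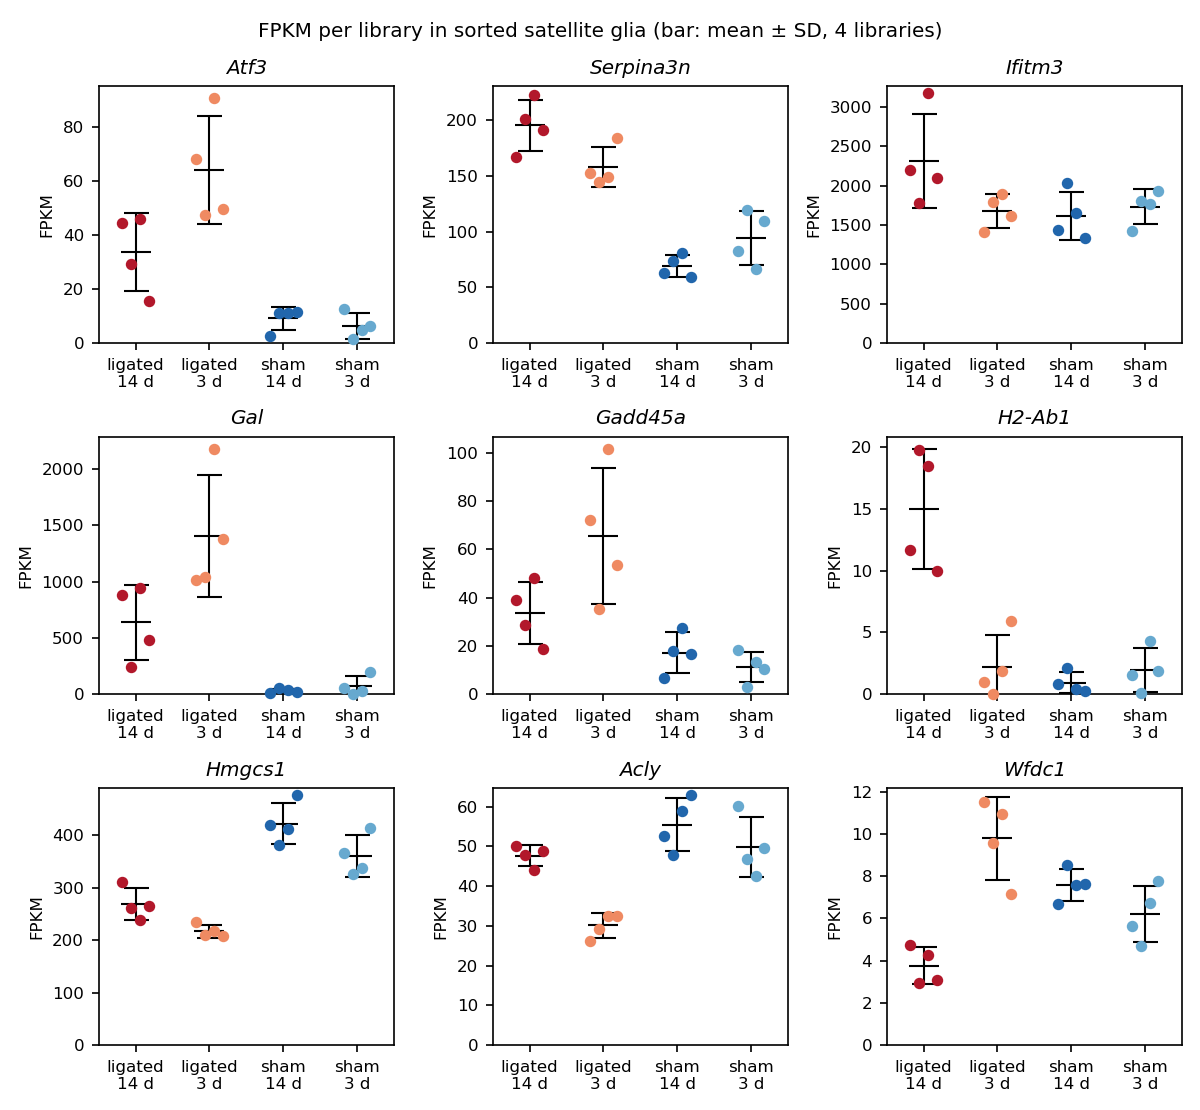
FPKM (y axis, linear from 0) of 9 genes in each of the 16 libraries, by group (x axis: ligated 14 days, ligated 3 days, sham 14 days, sham 3 days). Points are libraries and bars the mean ± SD of 4 libraries. Atf3, Gal and Gadd45a average highest in ligated day-3 libraries, Serpina3n and H2-Ab1 in ligated day-14 libraries, and Hmgcs1 and Acly lowest in ligated day-3 libraries.

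To sort responses by time, a gene was said to move at a day when its 4 ligated and 4 sham libraries did not overlap and the mean log2 difference was at least 1 in size. At 3 days 82 genes were higher by this rule (0.589% of tested genes) and 66 lower (0.474%). At 14 days 67 were higher (0.481%) and 44 lower (0.316%). Non-overlap alone held for 249 genes higher (1.79%) and 278 lower (2%) at 3 days, and for 236 higher (1.69%) and 331 lower (2.38%) at 14 days. Genes that moved at both days in 1 direction were called lasting. Genes with under 0.5 times the difference at the other day were called early or late. This gave 9 lasting genes, all higher, 119 early genes (56 higher and 63 lower) and 72 late genes (39 higher and 33 lower). A further 36 higher and 14 lower genes moved at a day but fell in none of these classes, Serpina3n among them. The median differences of these higher genes were 1.15 at 3 days and 1.16 at 14 days. For these lower genes they were -1.13 and -1.43. Between the sham days, where neither group was ligated, non-overlap alone held for 2.43% of genes higher and 0.876% lower at 14 days. The classes have no test, and how many of their members are due to ligation was not tested. Leaving out 1 library makes non-overlap easier to reach and gave 9 to 21 lasting, 111 to 255 early and 66 to 160 late genes. Without ligated day-3 replicate 1, the library that stood apart, there were 192 early genes.

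**Figure D2:**
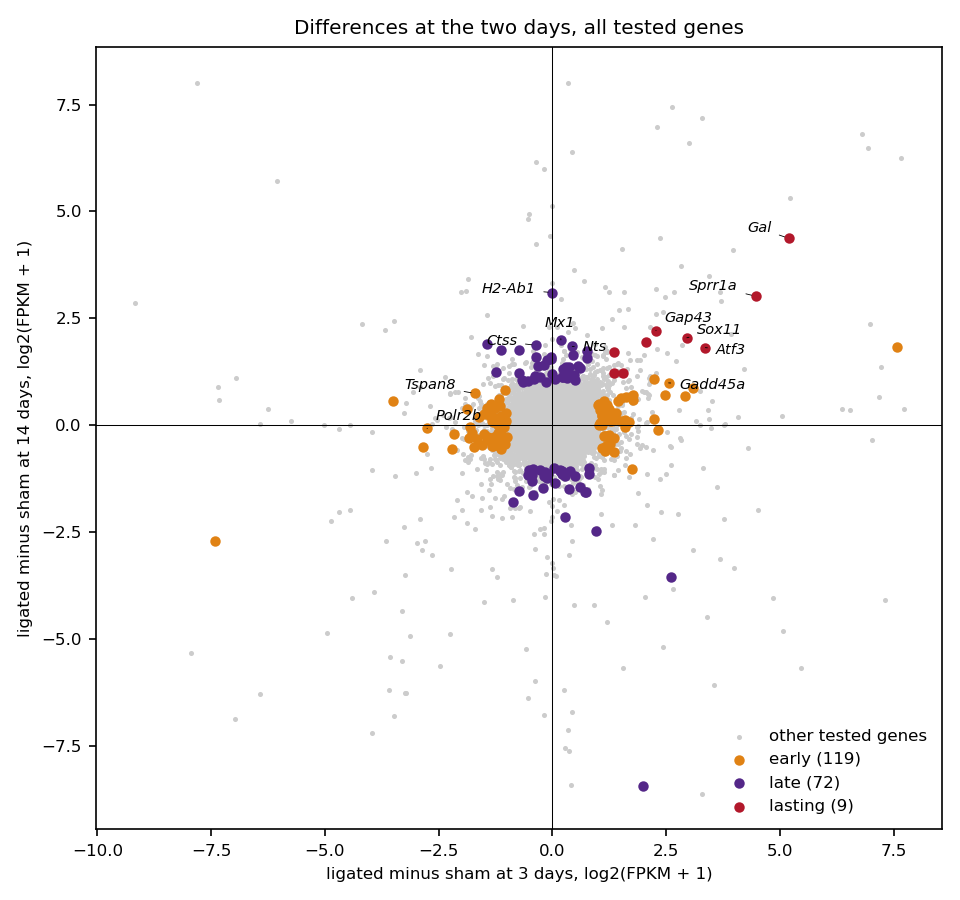
Ligated minus sham difference at 14 days (y axis) against that at 3 days (x axis), both in log2(FPKM + 1), for all 13924 tested genes. Colours mark the 119 early, 72 late and 9 lasting genes. Lasting genes lie toward the upper right, led by Gal at 5.19 and 4.37, and H2-Ab1 stands at 0.00 on the x axis and 3.10 on the y axis.

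The 9 lasting genes were Gal, Sprr1a, Atf3, Sox11, Gap43, Flrt3, Sez6l, Gpr151 and Snhg17. Most are known from the growth response of injured sensory neurons, and 6 of them are on the nerve injury list. Gal (ENSMUSG00000024907, chromosome 19, 3409915 to 3414544), the galanin precursor, read 883, 236, 946 and 481 FPKM in ligated day-14 libraries and 1014, 1037, 2176 and 1382 FPKM in ligated day-3 libraries, against 11.8, 50.8, 33.5 and 21.8 FPKM in sham day-14 and 53.4, 4.39, 29.8 and 197 FPKM in sham day-3 libraries. Every ligated library exceeded every sham library, and every ligated day-14 library was below every ligated day-3 one. The difference was 4.37 ± 0.82 at 14 days (SE; limma adjusted p = 0.20) and 5.19 ± 0.82 at 3 days (adjusted p = 0.0333).

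Sprr1a, a small proline-rich protein of regenerating axons, read 192, 71.5, 139 and 51.2 FPKM in ligated day-14 libraries and 35.9, 48.3, 412 and 118 FPKM in ligated day-3 libraries, against 6.52 to 20.9 FPKM in sham day-14 and 0 to 18 in sham day-3 libraries. Gap43, a growth cone protein, averaged 196 ± 97.3 FPKM at 14 days and 201 ± 88.2 at 3 days after ligation, against 38.9 ± 17.3 and 43.1 ± 20.5 in sham SGCs (SD, n = 4). For both genes the ligated day change was smaller than its SE, at 0.05 ± 0.89 for Sprr1a and -0.14 ± 0.53 for Gap43. Sox11, a transcription factor of axon growth, averaged 12.1 ± 5.31 and 16.6 ± 7.90 FPKM in ligated day-14 and day-3 libraries, and 2.16 ± 1.29 and 1.22 ± 0.795 in sham libraries of the same days. Flrt3, a cell adhesion protein, averaged 21.4 ± 3.48 and 26.3 ± 8.67 FPKM after ligation, and 8.65 ± 2.19 and 8.15 ± 1.94 after sham surgery. Sez6l, the orphan receptor Gpr151 and the noncoding Snhg17 averaged 7.14 FPKM or less in every group.

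Over the class, the median difference was 1.94 at 14 days and 2.27 at 3 days, and the ligated day change had a median of -0.14. The authors' deposited tables gave all 9 the same direction at both days and called 7 at 14 days and 5 at 3 days. Those tables compare ligated and sham SGCs at the same days, so shared directions follow largely from how the genes were chosen. There, 126 of 13395 genes were called at 3 days (0.941%) and 157 of 13534 at 14 days (1.16%), with 22 called at both. Sez6l had log2 3.18 at 14 days (adjusted p = 2.76e-12) and 2.56 at 3 days (adjusted p = 0.0759) there. Snhg17 passed at neither day. At a smaller threshold, a difference of 0.58, 18 genes were lasting and higher and 5 lasting and lower. The 5 were Chchd10, Gprc5c, Hmgcs1, Lss and Msmo1, of which the last 3 make cholesterol.

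Sprr1a is shown because its promoter window held the AP-1 motif more than once, the site bound by the protein family of Jun, Fos and Atf3. The window below is from RefSeq (GRCm38.p6, chr3:92485832-92486131, minus strand, 250 bases before to 50 after the start) and its capitals mark both matches to TGANTCA, which was searched on both strands.
Sprr1a: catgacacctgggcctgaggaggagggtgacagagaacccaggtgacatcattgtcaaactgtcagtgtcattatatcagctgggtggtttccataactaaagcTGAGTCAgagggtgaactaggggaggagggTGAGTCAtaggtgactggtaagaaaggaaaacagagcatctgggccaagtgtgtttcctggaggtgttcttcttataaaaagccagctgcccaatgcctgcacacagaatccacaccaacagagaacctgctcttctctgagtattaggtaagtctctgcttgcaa
Of all 32851 windows of this length, 7.81% held the motif. Of the 16 nerve injury genes with a window, Sprr1a and Nts held it. A match is a description of the letters only.

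The nerve injury list as a whole had 19 tested members. All 19 were higher in ligated than in sham SGCs at 3 days (median log2 difference 1.69, where all genes had -0.01) and 18 at 14 days (median 1.22, all genes -0.02). By the limma test 5 rose at 3 days, namely Gal, Atf3, Sox11, Stmn4 and Flrt3, where 9 of 13924 genes were called in all (0.0646%). None was called at 14 days. The other calls were Snora21, a small nucleolar RNA, which was higher, and Hmgcs1, Lss and Polr2b, which were lower. Each of the 5 lost its call in at least 7 of the 16 fits that left out 1 library, with adjusted p of up to 0.139. Between the ligated days 13 of the 19 were lower at 14 days, with a median of -0.19, whereas 14 were higher at 14 days in sham SGCs, with a median of 0.50. Nts, described above, and Npy, the precursor of neuropeptide Y, differed in direction, with ligated day-14 libraries all above the ligated day-3 ones. Npy read 101, 32.0, 74.7 and 18 FPKM in ligated day-14 libraries and 12.1, 0.219, 2.53 and 5.97 FPKM in ligated day-3 libraries, while 5 of 8 sham libraries were listed at 0. Its ligated day change was 3.40 ± 0.99 (SE; limma adjusted p = 0.538). Neuron markers, which many of these genes accompany in the ganglion, had a median ligated minus sham difference of 0.23 at 14 days and -0.11 at 3 days, and a ligated day change of 0.05. Of 13 tested, 9 were above sham at 14 days and 6 at 3 days. Their summed FPKM had medians of 695 and 616 in ligated day-14 and day-3 libraries, against 397 and 409 in sham. The authors' deposited tables called 2 of them higher at 14 days (1.16% of all genes tested here) and none at 3 days. The part of neuron RNA in the result was not tested.

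Early genes, higher at 3 days and less so at 14, included Gadd45a, Lgals3, Ccl2 and Dusp11. Gadd45a, a stress-induced growth arrest gene, read 38.8, 28.4, 48.1 and 18.7 FPKM in ligated day-14 libraries and 71.9, 35.3, 102 and 53.5 FPKM in ligated day-3 libraries. Sham SGCs averaged 17.1 ± 8.48 FPKM at day 14 and 11.2 ± 6.35 at day 3 (SD, n = 4). Ligated and sham libraries did not overlap at 3 days and did at 14 days. The difference was 0.99 ± 0.49 at 14 days and 2.55 ± 0.49 at 3 days (SE; limma adjusted p = 0.985 and 0.0816). The authors' deposited table called Gadd45a at 3 days (log2 2.62, adjusted p = 9.25e-05) and not at 14 days (0.86, adjusted p = 0.47).

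The classes rest on differences from sham, so the sham level enters them too. Lgals3, the galectin of reactive glia and macrophages, averaged 23.8 ± 8.48 FPKM at 14 days and 24.2 ± 3.99 at 3 days after ligation, against 10.4 ± 2.98 and 5.94 ± 4.86 in sham SGCs. The ligated day change was -0.09 and the sham day change 1.07. The authors' deposited tables called Lgals3 at 14 days (log2 1.2, adjusted p = 0.0202) and not at 3 days (1.96, adjusted p = 0.124), unlike its class here. Ccl2, a chemokine that attracts monocytes, averaged 17.7 ± 15.1 and 14.8 ± 8.05 FPKM in ligated day-14 and day-3 libraries, and 10.1 ± 7.28 and 3.62 ± 0.694 in sham libraries of the same days. The authors' deposited tables called Ccl2 at 3 days (log2 1.84, adjusted p = 0.031) and not at 14 days (0.73, adjusted p = 0.83). Dusp11, a phosphatase that acts on RNA, averaged 31.7 ± 4.23 and 48.7 ± 8.48 FPKM in ligated day-14 and day-3 libraries, and 33.3 ± 8.98 and 18.4 ± 12.3 in sham libraries. Its 3-day log2 difference was 1.59 ± 0.37 in the FPKM values and 0.68 in the authors' deposited table (adjusted p = 0.0719). Over the 56 early higher genes the median ligated day change was -0.78 and the median sham day change 0.51. For the 63 early lower genes these were 0.62 and -0.61. Because the class is cut on differences that share these libraries, opposite signs follow in part from the choice. Of the early higher genes 11 had ligated day-14 libraries all below the ligated day-3 ones, and of the early lower genes 8 had them all above. Over all tested genes, 0.905% were below and 2.33% above without overlap. These counts also share libraries with the choice of the class.

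Early lower genes included Tspan8 and Htr1f, described above, and Adgra1, an adhesion receptor. Adgra1 read 0 to 0.372 FPKM in ligated day-3 libraries and 3.36 to 4.93 FPKM in sham day-3 libraries. At 14 days it read 0 to 3.19 FPKM in ligated and 0.683 to 3.90 FPKM in sham libraries, which overlap. Of the 56 early higher genes the authors' deposited table listed 54, of which 53 had the same direction at 3 days, 46 had at least 0.5 times the FPKM difference and 16 were called. All 63 early lower genes had the same direction there and 12 were called. Over all genes tested here 0.941% were called at 3 days. That table compares ligated and sham SGCs at the same day, so shared directions follow largely from how the class was chosen.

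Late genes, which moved at 14 days, included several genes of immune recognition. Of the 39 late higher genes, 4 were on the MHC class II list (H2-Ab1, Cd74, Ctss and H2-Aa), 2 on the interferon list (Mx1 and Zbp1) and 1 each on the nerve injury and cell cycle lists (Nts and Top2a). These are 4 of 7, 2 of 35, 1 of 19 and 1 of 16 tested members, where 0.28% of all tested genes were late and higher. The late higher genes had a median difference of 1.33 at 14 days and -0.02 at 3 days. The median ligated day change was 0.91 and the sham day change -0.44, and 9 of 39 had ligated day-14 libraries all above the ligated day-3 ones. Over all tested genes this held for 2.33%, but the class was chosen on some of the same libraries. The authors' deposited 14-day table gave all 39 the same direction, 33 at least 0.5 times the FPKM difference, and called 15. Over all genes tested here it called 1.16%. As for the early genes, shared directions follow largely from how the class was chosen. Of the 33 late lower genes, the authors' deposited table called 6 and gave 23 at least 0.5 times the FPKM difference. Ccpg1, an adapter of endoplasmic reticulum autophagy, read 7.18, 4.85, 0 and 6.87 FPKM in ligated day-14 libraries and 20.5, 16.6, 16.4 and 14.3 FPKM in ligated day-3 libraries, against 15.1 to 24.8 in sham day-14 and 8.43 to 21.8 in sham day-3 libraries. The authors' deposited value for Ccpg1 at 14 days was smaller, log2 -0.62 (adjusted p = 0.54).

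**Figure D3:**
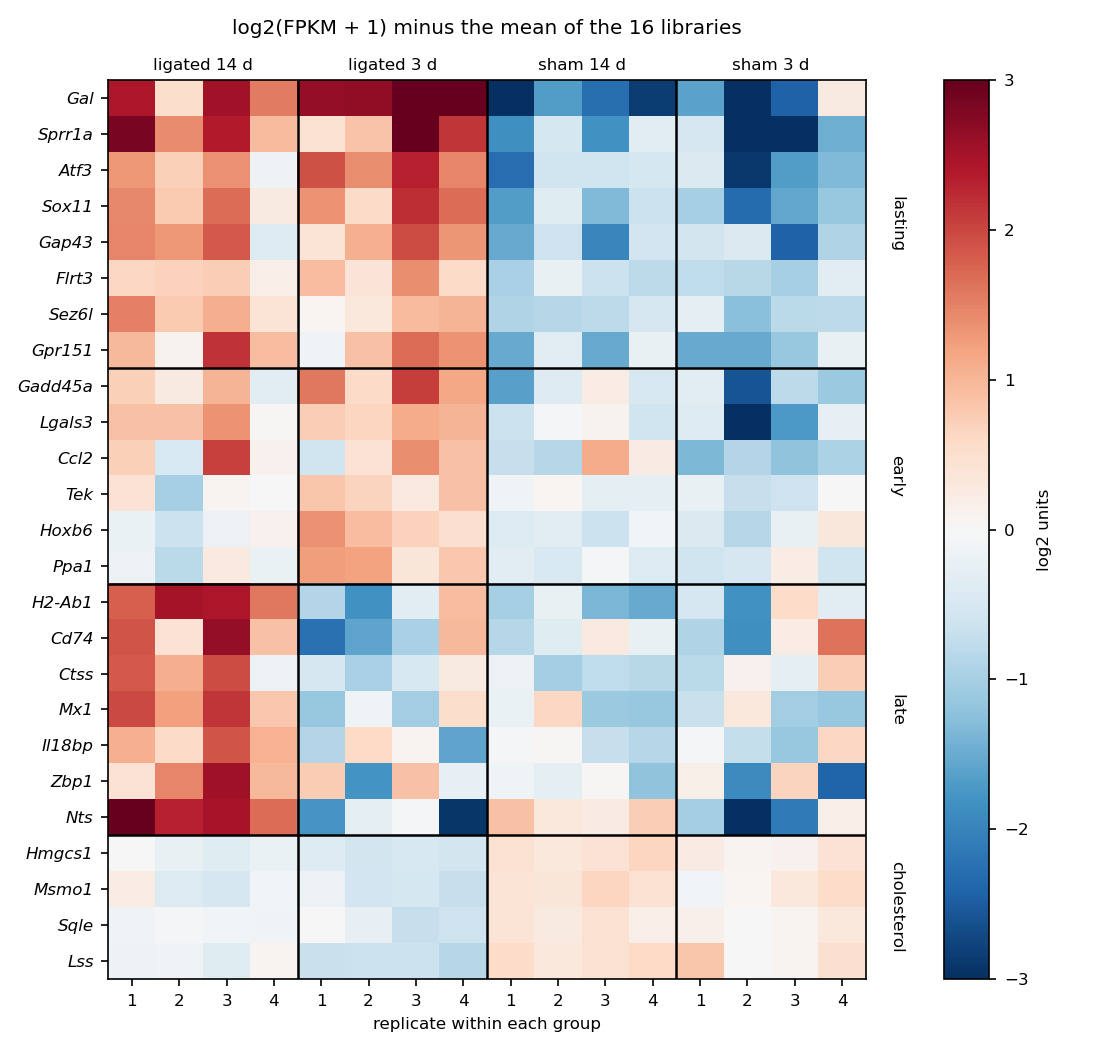
log2(FPKM + 1) of 25 lasting, early, late and cholesterol genes (rows) in the 16 libraries (columns, by group and replicate), each row minus its mean over the 16 libraries. Red is above and blue below the mean, and the colour scale ends at 3 units either way. Lasting genes are red in both ligated groups, and late genes mainly in ligated day-14 libraries. Cholesterol genes are pale throughout, mostly blue in ligated day-3 libraries and mostly red in sham libraries.

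MHC class II genes, which present peptides to helper T cells, had the highest median ligated day change of the gene lists, followed by macrophage markers. All 7 tested members were higher in ligated SGCs at 14 than at 3 days, with a median of 1.59 where all genes had 0.06, and 2 of 7 did not overlap. Over all tested genes, 2.33% were higher at 14 days without overlap. In sham SGCs 2 of 7 were higher at 14 days, with a median of -0.06. None passed the limma test. H2-Ab1 (ENSMUSG00000073421, chromosome 17, 34257689 to 34269419), the class II beta chain, read 11.7, 19.8, 18.5 and 10 FPKM in ligated day-14 libraries and 0.97, 0.0376, 1.91 and 5.89 FPKM in ligated day-3 libraries. Sham libraries read 0.844, 2.13, 0.412 and 0.278 FPKM at day 14 and 1.56, 0.0421, 4.30 and 1.90 FPKM at day 3. The ligated day-14 libraries lay above all 12 others. The ligated day change was 2.61 ± 0.55 (SE; limma adjusted p = 0.423), the difference from sham at 14 days 3.10 ± 0.55 (adjusted p = 0.181) and that at 3 days 0.00 ± 0.55. The authors' deposited table called it at 14 days (log2 4.02, adjusted p = 4.11e-08).

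Cd74, the invariant chain that guides class II molecules, read 16.6, 5.46, 28.6 and 7.71 FPKM in ligated day-14 libraries and 0, 0.598, 1.41 and 8.30 FPKM in ligated day-3 libraries, against 1.62 to 4.83 in sham day-14 and 0.335 to 13.6 in sham day-3 libraries. Ctss, the protease that trims the invariant chain, averaged 4.28 ± 2.79 FPKM in ligated day-14 libraries and 1.09 FPKM or less in the other groups. H2-Aa, the class II alpha chain, read 5.46, 6.27, 17.2 and 4.49 FPKM in ligated day-14 and 5.88, 7.65, 0 and 1.94 FPKM in ligated day-3 libraries, against 0.866 to 4.07 in sham day-14 and 0.147 to 8.46 in sham day-3 libraries. The ligated groups overlapped for both Cd74 and H2-Aa. Summed over the list, ligated day-14 libraries reached 25.8 to 85.9 FPKM and ligated day-3 libraries 4.29 to 18.2, against 7.24 to 14.1 in sham day-14 and 3.95 to 32.8 in sham day-3 libraries. The authors' deposited tables called 4 of the 7 higher at 14 days and none at 3 days. Over all genes tested here they called 1.16% at 14 days and 0.941% at 3 days.

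Macrophages and other antigen-presenting cells also make class II molecules. Of 13 macrophage markers 5 passed the filter, and 8 did not, among them Adgre1, Csf1r, Cx3cr1 and the C1q genes. The summed macrophage markers were 16.6 to 44.3 FPKM in ligated day-14 and 8.23 to 34.4 in ligated day-3 libraries, against 5.89 to 26.8 in sham day-14 and 8.15 to 20.3 in sham day-3 libraries. The 5 tested had a median ligated day change of 0.86. All 5 were above sham at 14 days (median 0.94) and 2 of 5 at 3 days (median -0.33), and none passed the limma test. Tyrobp, a signalling adapter of myeloid cells, read 10.2, 0, 11.1 and 0 FPKM in ligated day-14 libraries and 0, 0, 5.42 and 0.105 in ligated day-3 libraries. Aif1, a calcium-binding protein of macrophages, read 3.92, 0, 0 and 6.23 FPKM in ligated day-14 libraries and 0, 0.0677, 2.04 and 0 in ligated day-3 libraries, and was listed at 0 in all sham day-14 libraries. The authors' deposited table called Aif1 higher at 14 days (log2 7.74, adjusted p = 0.00199). The part of macrophages in the class II result was not tested.

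The H2-Aa window is shown because it held both a CRE (TGACGTCA) and a Y box (CTGATTGG), elements known from class II promoters. The window is from RefSeq (GRCm38.p6, chr17:34287774-34288073, minus strand, 250 bases before to 50 after the start), and its capitals mark these matches, the CRE first.
H2-Aa: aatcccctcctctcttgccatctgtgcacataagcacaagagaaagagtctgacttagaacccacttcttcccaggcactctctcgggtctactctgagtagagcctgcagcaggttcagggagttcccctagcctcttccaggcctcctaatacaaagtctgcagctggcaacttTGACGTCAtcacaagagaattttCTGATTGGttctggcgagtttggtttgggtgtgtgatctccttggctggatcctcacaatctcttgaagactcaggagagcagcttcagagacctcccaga
Among all windows 1.79% held the CRE and 4.1% the Y box on either strand. Of the 5 class II genes with a window, H2-Aa and H2-Eb1 held the Y box, as did 7 of 17 class I genes and 6 of 15 cholesterol genes.

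Genes of the interferon response, which block virus replication and feed antigen presentation, tended to read higher in ligated SGCs at 14 days, none passing the test. Of 35 tested genes 31 had a positive ligated day change, with a median of 0.53, against 25 in sham SGCs with a median of 0.16. In ligated against sham SGCs 34 of 35 were positive at 14 days (median 0.38) and 21 at 3 days (median 0.13). The ligated groups did not overlap for 3 of the 35, Mx1, Rtp4 and Gbp7, where 2.33% of all tested genes were higher at 14 days without overlap. Mx1, an antiviral GTPase, read 7.69, 4.21, 8.68 and 2.84 FPKM in ligated day-14 libraries and 0, 1, 0.0714 and 2.18 FPKM in ligated day-3 libraries. Sham libraries read 0.934, 2.41, 0.0116 and 0 FPKM at day 14 and 0.385, 1.74, 0.0711 and 0 FPKM at day 3. Its ligated day change was 1.99 ± 0.50 (SE; limma adjusted p = 0.433). Rtp4, an interferon-induced chaperone of receptors, averaged 80.0 ± 27.7 FPKM in ligated day-14 and 38.9 ± 4.96 in ligated day-3 libraries, against 60.2 ± 11.8 and 45.0 ± 14.9 in sham SGCs. Gbp7, a guanylate-binding protein, averaged 22.8 ± 7.43 and 13.2 ± 0.363 FPKM after ligation, and 16.8 ± 2.51 and 12.2 ± 2.48 after sham surgery. Zbp1, a sensor of nucleic acids, averaged 20.5 ± 14.4 FPKM in ligated day-14 libraries and 7.39 or less in the other groups. The authors' deposited tables called 1 of the 35 at 14 days, Zbp1 (log2 1.96, adjusted p = 0.0353), and none at 3 days. Over all genes tested here they called 1.16% at 14 days and 0.941% at 3 days. Il18bp, the interferon-induced inhibitor of interleukin-18, averaged 16.6 ± 7.12 FPKM in ligated day-14 and 5.53 ± 4.01 in ligated day-3 libraries, against 4.96 ± 1.80 and 5.75 ± 3.66 in sham SGCs. The authors' deposited table called it at 14 days (log2 1.64, adjusted p = 0.00088). Il18bp is not on the list and was chosen after its values were seen.

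The Ifitm3 window shows the interferon-stimulated response element (ISRE: GAAA, any 2 bases, GAAA), searched on both strands. It is from RefSeq (GRCm38.p6, chr7:141010695-141010994, minus strand), and the capitals mark an AP-1 match followed by both ISRE matches, which lie after the start.
Ifitm3: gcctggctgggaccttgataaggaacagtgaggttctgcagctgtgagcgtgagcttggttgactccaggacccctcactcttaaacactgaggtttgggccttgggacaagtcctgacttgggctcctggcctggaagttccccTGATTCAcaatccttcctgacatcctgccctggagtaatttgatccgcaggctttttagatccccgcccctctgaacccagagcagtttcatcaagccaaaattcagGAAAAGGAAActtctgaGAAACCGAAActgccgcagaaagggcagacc
Of 27 interferon genes with a window 16 held the ISRE, where 3.44% of all windows did. The list was drawn up from genes known to respond to interferon.

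MHC class I genes, which present peptides to cytotoxic T cells, showed smaller differences. Of 19 tested genes 16 had a positive ligated day change (median 0.35), against 14 in sham SGCs (median 0.09). B2m, the light chain of class I, averaged 4337 ± 706 FPKM in ligated day-14 and 2875 ± 358 in ligated day-3 libraries, against 2936 ± 301 and 2260 ± 541 in sham SGCs (SD, n = 4). Its ligated groups did not overlap. The day change of B2m was 0.59 ± 0.17 in ligated and 0.40 ± 0.17 in sham SGCs (SE; limma adjusted p = 0.538 and 0.967). H2-T22, a nonclassical class I chain, averaged 24.2 ± 7.06 FPKM at 14 days and 13.5 ± 4.34 at 3 days after ligation, and its groups did not overlap either.

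Cholesterol genes read lower after ligation than after sham surgery at both days. Of 22 tested genes all 22 were lower than sham at 14 days (median log2 difference -0.49, 14 without overlap) and 21 at 3 days (median -0.58, 12 without overlap). Over all tested genes, 2.38% were lower than sham without overlap at 14 days and 2% at 3 days. By the limma test Hmgcs1 and Lss fell at 3 days and none was called at 14 days. Each kept its 3-day call in 4 or fewer of 16 fits that left out 1 library. Between the ligated days 20 of 22 were higher at 14 days, with a median of 0.30, and 5 did not overlap, among them Hmgcs1, Lss and Hsd17b7. In sham SGCs 19 were higher at 14 days, with a median of 0.19, and 1 did not overlap. Over all tested genes, 2.33% in ligated and 2.43% in sham SGCs were higher at 14 days without overlap. None was called between days in either surgery or in the difference of the day changes, whose median was 0.07.

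Hmgcs1 (ENSMUSG00000093930, chromosome 13, 119690379 to 119708260), which makes the precursor of mevalonate, read 310, 262, 238 and 265 FPKM in ligated day-14 libraries and 234, 209, 218 and 207 FPKM in ligated day-3 libraries. Sham libraries read 421, 381, 412 and 477 FPKM at day 14 and 366, 326, 337 and 414 FPKM at day 3. Ligated and sham libraries were apart at both days. The ligated minus sham difference was -0.65 ± 0.11 at 14 days and -0.72 ± 0.11 at 3 days (SE; limma adjusted p = 0.181 and 0.0333), and the day change was 0.30 ± 0.11 in ligated and 0.23 ± 0.11 in sham SGCs. Lss, which closes the sterol rings, averaged 21.4 ± 2.95 FPKM in ligated day-14 and 14.1 ± 1.08 in ligated day-3 libraries, against 33.3 ± 2.90 and 31.0 ± 8.70 in sham SGCs. Its ligated groups were apart, the day-3 group being the lower.

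Hsd17b7, of the later steps, had a ligated minus sham difference of -0.22 at 14 days and -0.89 at 3 days. The authors' deposited tables called it lower at 3 days (adjusted p = 7.31e-05) and not at 14 days (adjusted p = 0.92). Msmo1 and Sqle showed -0.66 and -0.42 at 14 days and -0.70 and -0.54 at 3 days. For Msmo1 the authors' deposited tables called both days (adjusted p = 0.000214 at 14 days and 0.00106 at 3 days). They called Sqle at 14 days (adjusted p = 0.0168) and not at 3 days (adjusted p = 0.317). Over the list the authors' deposited tables called 7 lower at 14 days and 8 at 3 days, and none higher. Over all genes tested here they called 1.16% at 14 days and 0.941% at 3 days, in either direction.

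Hmgcs1 was the 1 cholesterol gene of 15 with a window that held the sterol regulatory element (SRE) spelled TCACNCCAC, searched on both strands, against 1.24% of all windows. The window is from RefSeq (GRCm38.p6, chr13:119690101-119690400, plus strand, 250 bases before to 50 after the start), with the SRE in capitals.
Hmgcs1: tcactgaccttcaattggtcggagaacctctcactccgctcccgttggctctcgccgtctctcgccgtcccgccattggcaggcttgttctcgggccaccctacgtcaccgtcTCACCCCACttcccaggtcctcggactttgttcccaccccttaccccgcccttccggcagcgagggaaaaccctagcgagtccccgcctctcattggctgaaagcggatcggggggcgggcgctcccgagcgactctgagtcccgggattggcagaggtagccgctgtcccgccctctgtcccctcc
Other spellings of the element were not searched.

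**Figure D4:**
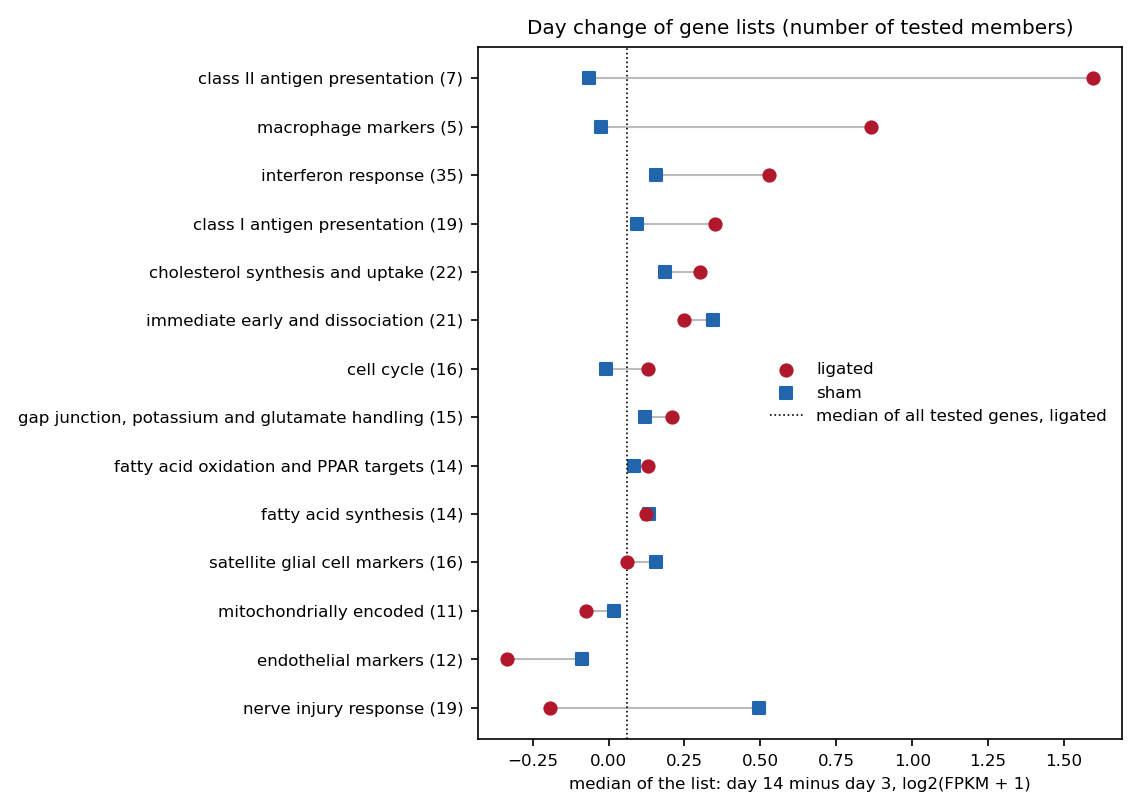
Median day-14 minus day-3 difference in log2(FPKM + 1) (x axis) of 14 gene lists (y axis, number of tested members in brackets), in ligated SGCs (circles) and sham SGCs (squares). The dotted line is the median of all tested genes in ligated SGCs, 0.06. The class II list stands at 1.59 in ligated and -0.06 in sham SGCs, and the nerve injury list at -0.19 and 0.50.

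SGC markers had no called difference between days. Of 16 SGC markers 11 were higher in ligated SGCs at 14 days (median 0.06, equal to that of all genes) and 15 in sham SGCs (median 0.16). In ligated against sham SGCs 14 of the 16 were lower at 14 days (median -0.17) and 10 at 3 days (median -0.12). None but Hmgcs1, which is on both lists, was called at either day. Sox10, the transcription factor of neural crest glia, averaged 139.6 ± 21.6 and 139.8 ± 22.3 FPKM after ligation at 14 and 3 days. S100b, a calcium-binding protein of glia, averaged 291 ± 19.0 and 341 ± 43.0 FPKM after ligation, and 403 ± 14.9 and 364 ± 35.7 after sham surgery. The authors' deposited table called S100b lower at 14 days (log2 -0.46, adjusted p = 0.00925).

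Of 15 genes for gap junctions, potassium and glutamate handling 13 were higher in ligated SGCs at 14 than at 3 days (median 0.21) and 12 in sham SGCs (median 0.12), with none called. Gjb2, a connexin, averaged 4.69 ± 1.31 FPKM in ligated day-14 and 1.82 ± 0.690 in ligated day-3 libraries, against 3.59 ± 1.18 and 2.53 ± 1.18 in sham SGCs. Its ligated day change was 1.02 ± 0.30 (SE; limma adjusted p = 0.538). Aqp4, a water channel, had a ligated day change of 0.46 ± 0.22. Slc1a3, the glutamate transporter GLAST, averaged 28.3 ± 0.828 FPKM in ligated day-14 and 24.9 ± 1.32 in ligated day-3 libraries, against 33.6 ± 2.29 and 29.3 ± 2.55 in sham SGCs. Its day change was 0.18 in ligated and 0.19 in sham SGCs.

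Of the reactive glia genes Serpina3n was called, at 14 days, and no complement gene was called at either day. Of 15 reactive glia genes 14 were higher than sham at 14 days (median 0.38) and 11 at 3 days (median 0.37), and the ligated day change had a median of 0.15. Of 8 complement genes 7 were higher than sham at 14 days (median 0.40) and 4 at 3 days (median 0.20). Serping1, the C1 inhibitor, averaged 131 ± 23.3 FPKM in ligated day-14 and 90.8 ± 10.8 in ligated day-3 libraries, against 81.5 ± 9.84 and 67.4 ± 11.1 in sham SGCs. C4b averaged 75.6 ± 19.1 and 83.5 ± 13.6 FPKM after ligation, and 41.7 ± 5.99 and 57.3 ± 11.6 after sham surgery. The authors' deposited table called both higher at 14 days (adjusted p = 0.00186 and 0.000214) and neither at 3 days. Serpinb1a, a protease inhibitor, was called by the authors at both days, with log2 2.71 at 14 days and 1.69 at 3 days, and read 65.6, 58.3, 65.8 and 9.51 FPKM in ligated day-14 libraries.

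All 12 endothelial markers read higher in ligated than in sham SGCs at both days, with a median of 0.46 at 14 days and 0.76 at 3 days. Between the ligated days 11 of 12 were lower at 14 days, with a median of -0.33, against 7 of 12 in sham SGCs with a median of -0.09. None was called. Summed endothelial markers were 528 to 1057 FPKM in ligated day-14 and 736 to 1312 in ligated day-3 libraries, against 431 to 751 in sham day-14 and 414 to 875 in sham day-3 libraries. Tek, the angiopoietin receptor, is an early gene and averaged 3.97 ± 1.80 FPKM in ligated day-14 and 7.14 ± 1.41 in ligated day-3 libraries, against 3.56 ± 0.526 and 2.96 ± 0.890 in sham SGCs. Vwf, the clotting factor carrier of endothelium, averaged 38.7 ± 25.1 and 75.0 ± 21.5 FPKM after ligation, and 20 ± 5.94 and 38.0 ± 28.2 after sham surgery. Of 5 tested markers of mural cells, which also belong to vessels, 2 were above sham at each day, with a median of -0.04 at 14 days and -0.11 at 3 days. The part of endothelial RNA in the early genes was not tested.

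Of 7 nociceptor markers 5 were higher in ligated SGCs at 14 than at 3 days (median 0.67) and 5 in sham SGCs (median 0.15). They read lower than sham, with a median of -0.38 at 14 days and -0.96 at 3 days. Scn10a, a sodium channel of nociceptors, averaged 2.84 ± 1.09 FPKM in ligated day-14 and 1.41 ± 0.581 in ligated day-3 libraries, against 3.19 ± 0.706 and 3.96 ± 2.42 in sham SGCs. Calca, the precursor of the neuropeptide CGRP, averaged 96.8 ± 56.5 and 42.5 ± 26.3 FPKM after ligation, and 119 ± 65.2 and 161 ± 182 after sham surgery. The groups of Calca overlapped. Stmn2, a neuronal microtubule regulator, averaged above sham at both days, at 250.5 ± 91.4 and 259 ± 81.2 FPKM after ligation and 103 ± 27.1 and 113 ± 68.7 after sham surgery.

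Cell cycle genes read slightly higher in ligated SGCs at 14 days, with 11 of 16 positive and a median of 0.13, and none was called. Top2a, which untangles replicated DNA, averaged 8.49 ± 4.82 FPKM in ligated day-14 and 5.91 ± 4.53 in ligated day-3 libraries, against 1.98 ± 0.83 and 3.56 ± 3.71 in sham SGCs. Prc1, a protein of the dividing cell's midzone, averaged 8.97 ± 1.3 and 5.94 ± 1.76 FPKM after ligation, and 3.31 ± 0.978 and 4.65 ± 1.99 after sham surgery. The authors' deposited table called both higher at 14 days (adjusted p = 9.05e-05 for Top2a and 6.33e-07 for Prc1) and neither at 3 days. Prc1 is not on the list and was chosen after its values were seen. Of the 16 listed genes the deposited tables called 1 higher at 14 days, Top2a, and none at 3 days. Over all genes tested here they called 1.16% at 14 days and 0.941% at 3 days. Tk1, also listed, was an early lower gene, with a ligated minus sham difference of -1.84 at 3 days and -0.31 at 14 days. Mitochondrially encoded genes, which can follow RNA quality, had a ligated day change of -0.07 and a sham day change of 0.02.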

How the data were processed

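Satellite glial cells sorted from ligated and sham mice at 14 and 3 days were compared. Per the submitters' processing notes, STAR, SAMtools, Cufflinks and DESeq2 were used with mm10, in roles and versions not given in the sources used here. The authors deposited FPKM per gene and library, with 45952 lines for 45882 identifiers, and 44952 identifiers were matched to GENCODE M21 names (GRCm38). No 2 libraries were identical. A value in 1 unnamed column was not used. FPKM carry no counts, so the depth behind a value is unknown, and intervals for counting error were not computed. The authors also deposited ligated and sham comparison tables with a mean normalized value and a standard error (score), a log2 fold change and a p-value adjusted for multiple tests. Their log2 sign is opposite to the FPKM values for 125 of 126 and 156 of 157 called genes, so the sign was turned to ligated over sham.

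Genes with at least 1 FPKM in at least 4 of 16 libraries (13924) were fitted as log2(FPKM + 1) with limma 3.58.1 in R 4.3.3 (trend, 4 groups of 4 libraries in 1 fit, 5 contrasts, Benjamini-Hochberg, threshold 0.05). The procedure was checked on simulated data. Tables and figures used Python 3.11.15, pandas 2.3.3, numpy 2.4.6 and Matplotlib 3.10.9. Named genes were the 3 markers, the calls, the 10 smallest p per direction among non-overlapping genes of the ligated day comparison, up to 8 per class and direction, up to 4 per list, and up to 10 that the authors' tables called at both days. Calca, Gpr151, Hsd17b7, Il18bp, Npy, Prc1, Serpinb1a, Slc1a3, Snora21, Sox10, Sqle, Top2a, Vwf and the genes added without a library were chosen after their values were seen. Members and gene lists were chosen with earlier results of these data known. Alternatives were other pseudocounts, filters and samples, array weights, a replicate block, omission of single libraries and, added after seeing the data, omission of small RNA genes. Some genes are not reported here.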

Additional observations from a re-analysis of the deposited data

Results flagged for a closer look

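Of 292 groups of 4 libraries checked for single distant values, 21 held one (7.19%), where chance gives about 1 in 20. Among immune genes, Cd74 read 8.30 FPKM in 1 ligated day-3 library, with the others at 0 to 1.41, and H2-Aa read 17.2 FPKM in 1 ligated day-14 library, with the others at 4.49 to 6.27. Tyrobp read 5.42 FPKM in 1 ligated day-3 library, with the others at 0 to 0.105, and 8.99 in 1 sham day-14 library, with the others listed at 0. Aif1 read 2.04 FPKM in 1 ligated day-3 library, with the others at 0 to 0.0677, and 4.64 in 1 sham day-3 library, with the others at 0 to 0.361. Among injury genes, Atf3 was low in 1 sham day-14 library at 2.75 FPKM, with the others at 11.1 to 11.6. Npy read 21.5 FPKM in 1 sham day-14 library, with the others at 0 to 1.34, and 4.74 in 1 sham day-3 library, with the others listed at 0. Serpinb1a was low in 1 ligated day-14 library at 9.51 FPKM, with the others at 58.3 to 65.8.

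Aimp1 read 79.6 FPKM in 1 ligated day-14 library, with the others at 38.6 to 42.2, and 382 in 1 sham day-3 library, with the others at 183 to 202. Prc1 read 4.77 FPKM in 1 sham day-14 library, with the others at 2.72 to 2.96, and 7.6 in 1 sham day-3 library, with the others at 3.38 to 4.05. One sham day-3 library each stood off for Ppa1 at 13, with the others at 6.84 to 7.36, for Tspan8 at 14.9, with the others at 5.50 to 6.87, and for Sox10 at 107 FPKM, with the others at 139.2 to 139.8. One ligated day-3 library each stood off for Lss at 12.5, with the others at 14.5 to 14.7, for Ints8 at 38.7, with the others at 22.8 to 24.2, and for Adgra1 at 0.372 FPKM, with the others at 0 to 0.0312. Neat1 was low in 1 sham day-14 library at 41.6 FPKM, with the others at 63.9 to 68.3.

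The day change of Polr2b differed between ligated and sham SGCs by 2.68 log2 units, tested by the interaction term (limma adjusted p = 0.000602). This call rests on values of exactly 0 in all ligated day-3 libraries. The authors' deposited table gave a ligated over sham log2 of only -0.31 at 3 days (adjusted p = 0.82).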

How the results depend on the processing

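The 1 call between ligated day 14 and day 3 and the 1 call of the difference in day change stayed at 1 under each alternative that gave a value, and at 1 to 4 each without single libraries. The sham day comparison, with 0 calls, gave 1 when only the groups compared were fitted and 0 to 1 without single libraries. The 9 calls of ligated against sham at 3 days became 14 with a pseudocount of 0.1, 1 without the filter, 4 with only the groups compared, 5 with array weights and 1 to 13 without single libraries. The 1 call at 14 days became 2 with only the groups compared, 10 with array weights and 1 to 2 without single libraries. Correlations of same-numbered deviations over 24 pairs lay between -0.08 and 0.10 with 0 over 0.1. Of 16 libraries 7 were closest to one with their own number. These values cannot decide whether replicate numbers pair the libraries. With the number as a replicate block the 3-day count was 1, and no other count changed. Lasting, early and late genes numbered 9, 119 and 72. They numbered 13, 192 and 127 with a pseudocount of 0.1, 13, 118 and 73 with quantile normalization, and 23, 257 and 185 with a difference of 0.58. Without single libraries they numbered 9 to 21, 111 to 255 and 66 to 160, since non-overlap of fewer libraries is easier to reach. Among named genes no call changed sign. Counted as pairs of a gene and a fit, 101 lost a 3-day call and 8 gained a call at each day. The cause of these shifts was not tested. With 4 libraries a group and unknown depth, differences of low genes are least certain.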
